A study of Mus musculus with 6 samples.

Results

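T cell receptor gene segments were the 169 rows, of 24628 genes in the table, whose symbol begins with the name of the α, β, γ or δ receptor locus followed by a V, D, J or C segment letter. The same symbol pattern also took in Tradd, which encodes an adaptor of the TNF receptor and is no receptor segment, and Tradd was left out. The α locus gave 73 V, 42 J and 1 C segment, the β locus 21 V, 2 D, 14 J and 2 C, the γ locus 1 V and 4 J, and the δ locus 5 V, 1 D, 2 J and 1 C. No row of the table had 0 reads in all 6 libraries, so these numbers leave out any segment without a read. A further 9 rows of the γ locus carry older symbols beginning with Tcrg, 5 V and 4 C segments. They lie outside the symbol rule and are given beside the γ segments under that name. All 169 segments had the same coordinates in the deposited table (mm10) and in GENCODE M21, which types 10 of them as pseudogenes.

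RNA-seq covers 6 libraries of mouse lymphocytes. The series text speaks of wild-type and conditional knockout (cKO) ILC1s, which are innate lymphocytes related to natural killer (NK) cells. The floxed group is 3 libraries titled Rorafl/fl, carrying floxed alleles of Rora, which encodes the nuclear receptor RORα. The cKO group is 3 libraries titled treatment, taken as cKO by elimination, whose columns add Ncr1, the gene of the NK receptor NKp46, to the name Rora. The labels give neither the Cre allele, nor strain, sex, age, sort gate or number of animals. Whether the libraries of a group come from separate animals is not stated, and a p-value here reflects the variation among them, technical or biological. Rora was at 6.92, 7.41 and 7.91 RPKM (reads per kilobase of gene, scaled to library size) in floxed and 5.69, 6.29 and 6.24 RPKM in cKO libraries, lower in all 3 without passing the test described further on (log2 difference -0.25, limma adjusted p = 0.242). Whole-gene values keep the exons outside the deleted part, which is not named, so they do not check the deletion. Each library held 20152146 to 22440170 reads recovered from the deposited values, and the receptor segments took 0.0562 to 0.0605% of them. Xist, the RNA of the inactive X chromosome, had a mean of 31.9 ± 3.16 RPKM in the 3 floxed libraries (SD) and of 9.43 ± 0.394 RPKM in the 3 cKO libraries, and the Y-linked Ddx3y one of 10.4 ± 0.498 and 20.8 ± 0.438 RPKM. Neither gene overlapped between the groups. The part of this difference in the results below therefore cannot be told apart from that of the genotype, and it was not tested.

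In a T cell, a receptor gene is assembled by cutting and joining 1 V, for the β and δ chains 1 D, and 1 J segment, after which the joined exon is spliced to a C segment. The α and β chains form one receptor and the γ and δ chains the other, and the δ segments lie inside the α locus. Lymphocytes other than T cells can transcribe unrearranged stretches of these loci, so RNA of a C or J segment does not by itself show a joined gene. In bulk RNA, fewer cells that carry a transcript and less of it per cell cannot be told apart.

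The β locus gave most of the reads, and the sequences of D and J segments are shown first because neighbours among them differed widely in level. Capitals mark the motif TTN GGN NNN GG, written codon by codon, which covers the phenylalanine-glycine-X-glycine turn of a J segment. It was searched on both strands of the 62 J segments and was found in 75.8% of them on the coding strand and in 0 on the other. Sequences are those of the GENCODE M21 transcripts of mm10, 5′ to 3′ on the coding strand, which is the plus strand except for Trgj2. For Trbj1-3 the transcript printed has 50 bases, whereas the row of the table runs to 41534376 and has 54.
Trbd1 (chr6:41533201-41533212): gggacagggggc
Trbj1-1 (chr6:41533864-41533911): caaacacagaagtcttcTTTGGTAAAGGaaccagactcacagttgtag
Trbj1-2 (chr6:41534001-41534048): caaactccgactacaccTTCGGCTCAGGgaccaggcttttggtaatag
Trbj1-3 (chr6:41534323-41534372): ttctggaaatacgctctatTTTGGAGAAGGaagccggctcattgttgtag
Trbj1-4 (chr6:41534811-41534861): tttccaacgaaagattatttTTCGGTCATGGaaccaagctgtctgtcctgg
Trbj1-5 (chr6:41535084-41535133): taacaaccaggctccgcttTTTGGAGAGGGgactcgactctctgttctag
Trbj1-6 (chr6:41535554-41535606): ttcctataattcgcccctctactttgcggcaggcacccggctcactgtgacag
Trbj1-7 (chr6:41535642-41535687): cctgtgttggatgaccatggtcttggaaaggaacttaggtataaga
Trbd2 (chr6:41542163-41542176): gggactgggggggc
Trbj2-1 (chr6:41542754-41542803): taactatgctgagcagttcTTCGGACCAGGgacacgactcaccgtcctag

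Among the segments tested, 2 passed as higher in the cKO libraries, the δ variable segment Trdv2-1 and the α joining segment Traj40, and 0 passed as lower. Of the 169 segments, 67 reached 1 RPKM in 3 or more libraries and were tested, and 102 were not. Of the 67, 2 met this filter through 1 group only, Traj40 through the cKO and Traj30 through the floxed libraries, so they had to differ and their tests support nothing. The test was limma on log2(RPKM + 1) over all 12731 genes that passed the filter, with Benjamini-Hochberg adjustment over all of them. It called 2.99% of the tested segments, Traj40 included, beside 1.32% of all tested genes (0.652% higher and 0.668% lower), and nothing is read from that share. At an unadjusted p under 0.05, 4 segments lay higher, Traj40 included, and 11 lower, Traj30 included, beside 5.55 and 8.6% of all genes. With limma voom, a weighted fit on recovered reads, 0 segments were called in either direction, beside 4.19% of all genes (1.78% higher and 2.41% lower). The groups did not overlap in 16 tested segments, 4 higher and 12 lower in the cKO libraries, Traj40 and Traj30 included. That was 23.9%, beside 20.3% of all tested genes (7.61% higher and 12.7% lower), a share near the background. Log2 differences lay below 0 in 46 of 67 tested segments (68.7%), Traj30 included, beside 57.3% of all tested genes, with a median of -0.27 beside -0.03. The segments of a locus share their libraries and part of their transcripts, so these counts are a description.

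The largest sums of reads were those of the β C and J segments, and the summed reads of the α locus were lower in the cKO libraries. Summed reads of a set are given in RPM, the reads of the set scaled to a library of 1000000 reads, a scale that does not correct for length. The β locus summed to 458.5 ± 11.97 RPM in floxed and 453 ± 5.63 RPM in cKO libraries (SD, n = 3 each), the δ locus to 92.9 ± 2.63 and 91.1 ± 7.36 RPM, and the α locus to 22.1 ± 1.72 and 16.2 ± 1.79 RPM. For the β and δ loci the groups overlapped, and the sign of the difference turned when libraries were scaled by a trimmed mean of gene ratios. For the α locus they did not, at 23.7, 20.2 and 22.2 RPM in floxed and 18.1, 14.5 and 15.9 RPM in cKO libraries. The γ locus with the Tcrg rows summed to 116, 125 and 102 RPM in floxed and 83.6, 98.7 and 79.3 RPM in cKO libraries, again with no overlap. Sums were not tested. Counting all 4 loci without the Tcrg rows, the total was 592 ± 11.5 RPM in floxed and 575 ± 13.7 RPM in cKO libraries, and the groups overlapped.

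**Figure D1:**
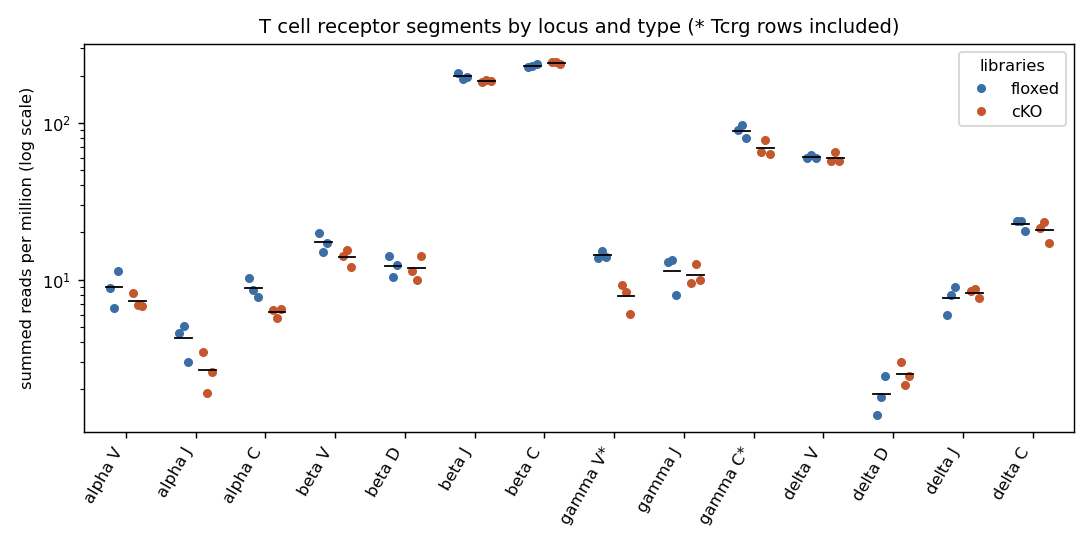
Summed reads in RPM (log scale) of each locus and segment type in the 3 floxed and 3 cKO libraries, 1 point per library, with group means as bars; γ V and γ C include the Tcrg rows. The β J and C sums stand highest, between 183 and 245 RPM. The α C, β J, γ V and γ C points of the cKO libraries lie below all floxed points, and their β C points lie above.

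RNA of the β constant segments was abundant in both groups, and that of V segments of the same locus low. Trbc1 (chromosome 6, 41538218 to 41539881, plus strand), the constant segment of the first β cluster, was at 227, 238 and 229 RPKM in floxed and 252, 252 and 252 RPKM in cKO libraries. All 3 cKO values lay above the floxed values, and limma gave a log2 difference of 0.12 (SE 0.04, adjusted p = 0.2), so Trbc1 did not pass. Trbc2 (chromosome 6, 41546730 to 41548352), the constant segment of the second cluster, was at 83.4, 75.8 and 92.6 RPKM in floxed and 78.7, 82.0 and 70.0 RPKM in cKO libraries. Those groups overlapped (log2 difference -0.12, adjusted p = 0.613). The transcripts of Trbc1 and Trbc2 were 83.7% identical over the shorter one, so reads of their shared stretches may be split between them. Trbc1 took 72.8 to 79.6% of the β C reads of a library.

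Within the first β cluster, J segments in the middle were read far more than those at its end, in both groups. These segments are 46 to 54 bases long, so their RPM can be compared without a length scale. Trbj1-2 stood highest at 49.8 ± 0.490 RPM in floxed and 51.0 ± 1.29 RPM in cKO libraries (n = 3 each), on 992 to 1176 reads per library. Trbj1-3 followed at 35.5 ± 0.943 and 32.8 ± 2.13 RPM and Trbj1-4 at 36.2 ± 4.06 and 32.8 ± 0.890 RPM. Their floxed levels differed by less than the spread of Trbj1-4. From Trbj1-5 (6.89 ± 0.747 and 6.48 ± 1.07 RPM) through Trbj1-6 (4.21 ± 0.496 and 4.26 ± 0.515 RPM) to Trbj1-7 (2.73 ± 0.384 and 2.89 ± 0.174 RPM), the last of the cluster, the mean levels decreased. Trbj1-1, nearest to the D segment, was at 15.3 ± 0.516 RPM in floxed and 17.6 ± 1.84 RPM in cKO libraries, without overlap and without passing (limma adjusted p = 0.319). Trbj1-6 and Trbj1-7 are the only J segments of this cluster without the motif shown in capitals above. Trbj1-2, Trbj1-3 and Trbj1-4 together took 77.3 to 80.9% of the reads of the cluster in every library.

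Trbd1, the D segment in front of the first cluster, had 281, 207 and 255 reads in floxed and 255, 206 and 299 reads in cKO libraries, although it is 12 bases long. Trbd2, the 14-base D segment of the second cluster, had 26, 2 and 13 reads in floxed and 1, 4 and 12 reads in cKO libraries. A read is longer than such a segment, so its RPKM (972 ± 112 in floxed libraries for Trbd1) says little about its level beside longer genes. Both overlapped between groups, with limma adjusted p = 0.965 for Trbd1 and 0.683 for Trbd2. In the second cluster Trbj2-1 stood highest, at 18.9 ± 0.591 RPM in floxed and 15.6 ± 2.88 RPM in cKO libraries (adjusted p = 0.357). In floxed libraries the means went down through Trbj2-2 (12.4 ± 1.88 and 9.65 ± 1.74 RPM) and Trbj2-3 (5.80 ± 1.60 and 5.33 ± 0.924 RPM) and Trbj2-4 (1.73 ± 0.430 and 0.894 ± 0.671 RPM) to Trbj2-5 (1.41 ± 0.357 and 0.993 ± 0.586 RPM). Trbj2-7, at the far end, was again higher, at 4.72 ± 1.1 and 3.43 ± 0.481 RPM, and the groups did not overlap (adjusted p = 0.324).

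**Figure D2:**
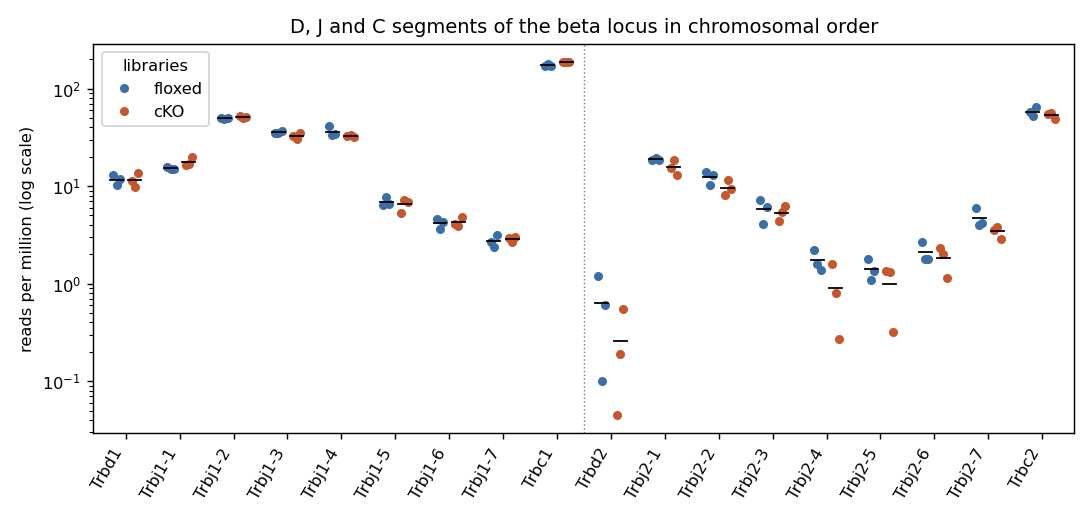
Reads in RPM (log scale) of each β D, J and C segment in chromosomal order, 1 point per library, with group means as bars; the dotted line parts the first cluster from the second. In the first cluster Trbj1-2 stands at 49.8 RPM in floxed libraries and Trbj1-7 at 2.73 RPM, and the floxed and cKO points follow the same course.

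The first J cluster summed to 151 ± 3.94 RPM in floxed and 148 ± 3.78 RPM in cKO libraries, and the second to 47.1 ± 5.03 and 37.7 ± 5.37 RPM. In the second cluster cKO replicate 2 (43.5 RPM) lay above floxed replicate 2 (42.4 RPM), so the groups overlapped. As a share of the β J reads, the first cluster took 74.7, 77.6 and 76.3% in floxed and 80.0, 76.9 and 82.2% in cKO libraries. All 14 β J segments had reads in every library, and in each group they gave a smaller share of the locus than the C segments. That share was 44.2, 42.5 and 42.5% in floxed and 40.5, 41.0 and 41.3% in cKO libraries, without overlap and without a test. Of the 32 tested β segments, 0 passed in limma and 0 in voom. At an unadjusted p under 0.05, 2 lay higher and 3 lower, beside 5.55 and 8.6% of all tested genes.

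The 21 β V segments together gave 17.3 ± 2.41 RPM in floxed and 13.9 ± 1.70 RPM in cKO libraries, or 2.69 to 4.21% of the reads of the locus. Per kilobase this was a mean of 2.10 and 1.68 RPKM, beside 160.5 and 168 RPKM for the β C segments. The 21 leave out any V segment never read here. Of them, 16 to 19 had at least 1 read in a library, and 10 to 13 had at least 10. Trbv16, the V segment with the most reads, had 44, 30 and 43 reads in floxed and 84, 68 and 37 in cKO libraries (limma adjusted p = 0.461). Trbv13-2, a V segment much used by mouse T cells and by NKT cells, had 61, 41 and 31 reads in floxed and 38, 42 and 39 in cKO libraries (adjusted p = 0.825). The groups overlapped in both. Trbv12-2 was at 4.52 ± 0.982 RPKM in floxed and 2.54 ± 0.669 RPKM in cKO libraries and Trbv15 at 5.41 ± 1.09 and 2.77 ± 1.36 RPKM. In both the cKO values lay below the floxed values, and neither passed (adjusted p = 0.202 and 0.268). Trbv5, with 22, 11 and 42 reads in floxed and 27, 56 and 40 in cKO libraries, shares 79.3% of its bases with 5830405F06Rik on the same strand, so its reads cannot be assigned to it alone.

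The δ locus held the segment with the smallest adjusted p, Trdv2-1, next to a more abundant V segment, Trdv4, for which limma gave no call. The last 60 bases of Trdv2-1 and of its neighbour Trdv2-2 are shown because they resemble each other, and capitals mark the 4 bases in which these stretches differ. Over the shorter sequence the pair was 91.7% identical.
Trdv2-1 (chr14:53946601-53946660): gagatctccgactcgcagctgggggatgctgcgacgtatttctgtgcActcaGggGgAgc
Trdv2-2 (chr14:53961543-53961602): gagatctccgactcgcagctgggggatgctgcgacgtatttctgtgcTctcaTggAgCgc

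Trdv2-1 (chromosome 14, 53946073 to 53946660, plus strand) had 34, 34 and 28 reads in floxed and 93, 64 and 80 reads in cKO libraries, or 4.5, 4.85 and 3.72 RPKM against 11.9, 8.71 and 10.4 RPKM. The lowest cKO value was above the highest floxed value. On the log2(RPKM + 1) scale, which understates changes of low genes, limma gave 1.08 (SE 0.13) with a 95% confidence interval from 0.76 to 1.40 and an adjusted p = 0.0175. The cKO mean was 238% of the floxed mean. Of the δ V reads of a library, Trdv2-1 took 2.61, 2.70 and 2.15% in floxed and 7.25, 4.68 and 6.34% in cKO libraries. The call held in 9 of 16 alternatives, with adjusted p between 0.0119 and 0.0814. It was lost, among others, with voom (0.0546), without the filter on low values (0.0554), and without floxed replicate 1 (0.0624) or 3 (0.0645) or cKO replicate 1 (0.0610) or 3 (0.0814).

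The predicted gene Gm43647 lies on the opposite strand over 55.2% of the bases of Trdv2-1 and 26.4% of those of Trdv2-2. It had 239, 164 and 140 reads in floxed and 301, 284 and 277 reads in cKO libraries, with the cKO reads above the floxed reads (log2 difference 0.62, limma adjusted p = 0.18). The strand setting of the counting was not given in the sources used here, so reads of Trdv2-1 and of Gm43647 cannot be told apart where they overlap. Trdv2-2 was at 26.6, 21.7 and 16.1 RPKM in floxed and 28.1, 30.2 and 23.1 RPKM in cKO libraries, with overlap (log2 difference 0.34, adjusted p = 0.479).

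Trdv4 (chromosome 14, 54074905 to 54075515, plus strand) was the V segment with the most reads of all 4 loci. It had 985, 987 and 1062 reads in floxed and 894, 1013 and 930 reads in cKO libraries, or 108 ± 4.77 and 97.6 ± 9.45 RPKM (n = 3 each). The groups overlapped, and limma gave adjusted p = 0.464. Trdv4 took 75.6, 78.4 and 81.7% of the δ V reads in floxed and 69.7, 74.1 and 73.8% in cKO libraries. Trdv5, which lies behind the constant segment on the opposite strand, was at 5.34 ± 0.581 and 3.97 ± 0.970 RPKM (adjusted p = 0.357), and 47.3% of its bases overlap Trdc.

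The D, J and C segments of the δ locus did not pass. They are printed because Trdd2 and Trdj1 carried reads in every library, and capitals mark the J motif named above.
Trdd2 (chr14:54122226-54122241): atcggagggatacgag
Trdj1 (chr14:54123138-54123188): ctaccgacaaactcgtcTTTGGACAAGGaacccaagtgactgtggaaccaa
Trdj2 (chr14:54136779-54136837): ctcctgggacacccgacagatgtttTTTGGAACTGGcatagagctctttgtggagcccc

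Trdd2 had 30, 36 and 53 reads in floxed and 67, 45 and 54 reads in cKO libraries. Trdj1, the J segment next to it, had 111, 141 and 162 reads in floxed and 158, 146 and 143 in cKO libraries, and Trdj2 had 18, 21 and 31 against 32, 37 and 26. In all 3 the groups overlapped, with limma adjusted p = 0.417, 0.855 and 0.48. The constant segment Trdc (chromosome 14, 54142851 to 54148868) was at 5.84 ± 0.488 RPKM in floxed and 5.34 ± 0.828 RPKM in cKO libraries (adjusted p = 0.738). Its row is 3865 bases long, against 444 for Trdv4, and V segments gave 63.5 to 67.7% of the δ reads of a library.

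**Figure D3:**
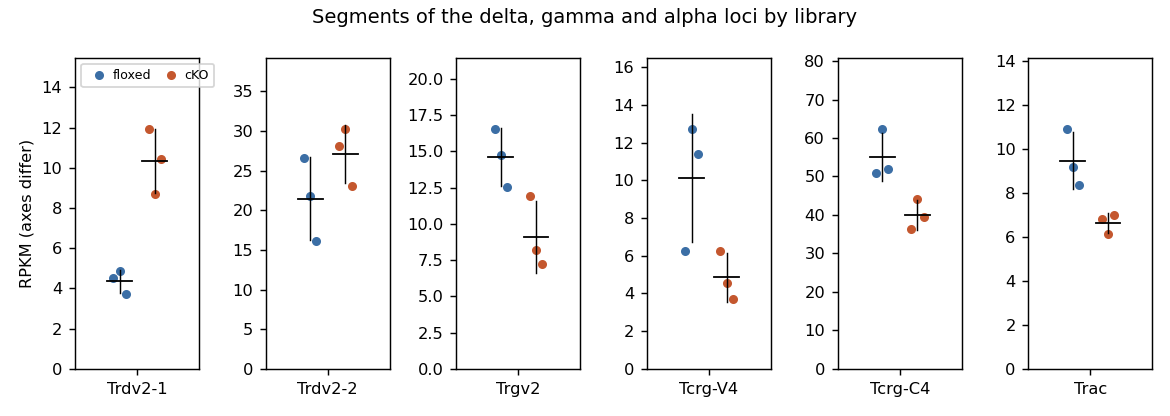
RPKM of 6 segments in each library, with the group mean as a bar and the SD as a line (n = 3 each); each panel has its own axis, from 0. Trdv2-1 lies at 8.71 to 11.9 RPKM in cKO libraries against 3.72 to 4.85 RPKM in floxed libraries, and the cKO points of Trgv2, Tcrg-C4 and Trac lie below the floxed points.

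In the γ locus the summed V and C reads were lower in the cKO libraries, and among the tested rows Trgv2 and Tcrg-C4 did not overlap between groups. The other tested V, J and C rows overlapped, and 0 rows of the locus passed in limma. Trgv2 (chromosome 13, 19336573 to 19337167, minus strand), the only V segment under its current symbol here, was at 16.5, 14.8 and 12.5 RPKM in floxed and 11.9, 8.20 and 7.20 RPKM in cKO libraries. All cKO values were below all floxed values (log2 difference -0.65, SE 0.18), and limma gave adjusted p = 0.189. Tcrg-C4 (chromosome 13, 19344558 to 19352756, plus strand), a constant segment of the locus, was at 51.0, 62.2 and 51.9 RPKM in floxed and 36.3, 44.2 and 39.4 RPKM in cKO libraries. Here too the groups did not overlap (log2 difference -0.45, SE 0.10). Limma gave adjusted p = 0.118 and voom 0.00739, the only fit of 16 alternatives that called it. Tcrg-C1 (20.8 ± 4.15 and 16.5 ± 4.36 RPKM) and Tcrg-C2 (16.6 ± 2.20 and 15.3 ± 1.83 RPKM) overlapped between groups, with adjusted p = 0.545 and 0.745.

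Tcrg-V4 was at 6.27, 12.7 and 11.4 RPKM in floxed and 6.28, 4.56 and 3.72 RPKM in cKO libraries, so that floxed replicate 1 and cKO replicate 1 met at nearly the same value. The difference did not pass (log2 difference -0.90, limma adjusted p = 0.208). Over 18.5% of its bases it faces the predicted gene Gm43385 on the other strand, which was at 8.5 ± 2.67 RPKM in floxed and 3.40 ± 0.489 RPKM in cKO libraries (adjusted p = 0.0976). Tcrg-V5 was at 6.62, 5.82 and 7.45 RPKM in floxed and 1.83, 6.67 and 1.86 RPKM in cKO libraries, where cKO replicate 2 reached the floxed level. Its adjusted p was 0.339, and 0.0266 without that library. Tcrg-V6 had 14, 8 and 8 reads in floxed and 2, 0 and 1 in cKO libraries and stayed below the filter. Summed over all 6 V rows, γ V reads were 13.8, 15.2 and 14.1 RPM in floxed and 9.27, 8.29 and 6.07 RPM in cKO libraries, or 11.9 to 13.8% and 7.66 to 11.1% of the reads of the locus.

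The γ J segments are printed because 3 of them are near copies. None holds the J motif searched, so no base is in capitals.
Trgj1 (chr13:19210343-19210402): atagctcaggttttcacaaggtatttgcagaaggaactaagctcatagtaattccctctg
Trgj3 (chr13:19257117-19257176): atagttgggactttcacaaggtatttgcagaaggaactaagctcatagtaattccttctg
Trgj2 (chr13:19311245-19311304): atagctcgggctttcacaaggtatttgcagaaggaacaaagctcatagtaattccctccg
Trgj4 (chr13:19342152-19342212): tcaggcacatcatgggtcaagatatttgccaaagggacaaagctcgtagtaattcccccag

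Trgj1 and Trgj2 differ at 4 of 60 bases (93.3% identity), Trgj1 and Trgj3 at 6, and the constant rows Tcrg-C1 and Tcrg-C2 were 95.6% identical, so reads of these copies may be split or lost. Trgj1 had 67, 64 and 29 reads in floxed and 51, 75 and 43 in cKO libraries, and Trgj2 67, 73 and 63 against 91, 78 and 50. Trgj4, with 68.3% identity to Trgj1, had 143, 132 and 80 reads in floxed and 72, 112 and 128 in cKO libraries. The groups overlapped in each, with adjusted p = 0.947, 0.977 and 0.799. Trgj3 had 3 reads in floxed replicate 1 and 0 in the other 5 libraries, and Tcrg-C3 had 6 and 2 reads in floxed replicates 1 and 2 and 0 elsewhere. Of the 4 tested γ segments under the symbol rule, 0 passed in limma and 0 in voom. At an unadjusted p under 0.05, 0 lay higher and 1 lower, beside 5.55 and 8.6% of all tested genes. Of the 5 tested Tcrg rows, 0 lay higher and 3 lower at that threshold. Among these rows 0 passed in limma, and voom called 1 as lower, Tcrg-C4, beside 2.41% of all tested genes.

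The α locus was the least read of the 4 per kilobase, and Trac lay lower in every cKO library. Trac (chromosome 14, 54220521 to 54224206, plus strand), the single α constant segment, was at 10.9, 9.18 and 8.35 RPKM in floxed and 6.82, 6.13 and 6.98 RPKM in cKO libraries. The groups did not overlap, with a cKO mean at 70.1% of the floxed mean (log2 difference -0.45, SE 0.11). Limma gave adjusted p = 0.136, within 0.121 to 0.304 over the alternatives, so Trac did not pass in any of them.

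Traj40 passed the test on 8 reads in all, and it entered the test only because its 3 cKO libraries reached 1 RPKM. It and Traj30, the α J segment with the next smallest p, are printed with the J motif in capitals.
Traj40 (chr14:54177921-54177981): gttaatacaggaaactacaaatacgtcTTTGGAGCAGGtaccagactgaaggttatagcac
Traj30 (chr14:54189866-54189924): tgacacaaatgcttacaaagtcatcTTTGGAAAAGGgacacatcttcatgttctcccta

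Traj40 had 0 reads in each floxed library and 4, 2 and 2 reads in the cKO libraries, for an adjusted p = 0.0259 in limma. The segment is 61 bases long, so 2 reads already gave 1.49 RPKM or more, and no fold is given at this depth. Without the filter the adjusted p was 0.0569 and with voom 0.325, and the call held in 4 of 14 alternatives. It was lost when any 1 library was left out (0.0610 to 0.0985). Traj30 had 3, 5 and 2 reads in floxed and 1, 0 and 0 in cKO libraries (adjusted p = 0.104). Traj3 had 5, 5 and 2 reads against 0, 0 and 2 (adjusted p = 0.193). Of the 67 tested segments, 22 rested on fewer than 60 reads over the 6 libraries, and differences of this kind are at the limit of the depth. Traj12, the α J segment with the most reads, had 13, 7 and 10 reads in floxed and 5, 5 and 8 in cKO libraries, and the groups overlapped. Traj37 had 13, 0 and 5 reads against 12, 4 and 5, and Traj6 had 5, 6 and 4 against 7, 0 and 7, both with overlap. Traj49 had 7, 9 and 6 reads in floxed and 4, 0 and 4 in cKO libraries, without overlap and without passing (limma adjusted p = 0.312).

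Reads of α V segments were thin and scattered. The 73 V segments with a row leave out any never read here. A floxed library had reads on 26 to 35 of them and a cKO library on 24 to 32. At least 10 reads fell on 3 to 9 of them in floxed and on 3 to 7 of them in cKO libraries. Only 5 had a read in all 6 libraries, and 31 had reads in exactly 1. Of the 73, 33 have a copy at 98% identity or more among the others, 20 of them an identical one, so reads of a duplicated V segment cannot be placed on 1 row. Trav15n-2, the α V segment with the most reads, had 14, 19 and 28 in floxed and 13, 13 and 5 in cKO libraries. Its RPKM did not overlap between the groups and did not pass (limma adjusted p = 0.33). Trav13-4-dv7 had 10, 0 and 2 in floxed and 31, 0 and 14 in cKO libraries, and Trav6n-7 had 16, 1 and 28 against 4, 5 and 1. Trav15-1-dv6-1 had 10, 2 and 9 reads in floxed and 6, 19 and 3 in cKO libraries (adjusted p = 0.914). For Trav13-4-dv7 and Trav6n-7 the spread within a group was larger than the difference between the means. Of the 22 tested α segments, 1 passed as higher, Traj40, and 0 as lower in limma, beside 1.32% of all tested genes. At an unadjusted p under 0.05, 1 lay higher and 7 lower, beside 5.55 and 8.6% of all tested genes. These counts include Traj40 and Traj30, which met the filter through 1 group only.

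Segments of invariant receptors were at the floor. NKT cells pair Traj18 with Trav11 in their α chain, and MAIT cells pair Traj33 with Trav1. Traj18 had 0, 4 and 3 reads in floxed and 7, 0 and 0 in cKO libraries, and Trav11d, a duplicate of Trav11, had 2, 0 and 0 against 0, 0 and 6. Traj33 had 2 reads in cKO replicate 1 and 0 in the other 5 libraries. Trav11 and Trav1 had no row among the genes given. At this depth no difference was detectable for these segments.

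Genes that act with the receptor were read in both groups. Counts of the gene lists here and below stand beside 0.652% of all tested genes called higher by limma and 0.668% called lower. At an unadjusted p under 0.05 these shares were 5.55 and 8.6%, and with voom 1.78 and 2.41%. Cd3e, a signalling chain of the receptor complex, fell from 5.35 ± 0.430 to 2.93 ± 0.142 RPKM (n = 3 each; limma adjusted p = 0.0232). Cd247, the ζ chain, which also serves NK receptors, rose from 26.1 ± 0.598 to 32.4 ± 0.365 RPKM (adjusted p = 0.0344). Cd3d (12.7 ± 2.03 and 13.01 ± 0.545 RPKM), Cd3g (13.02 ± 0.864 and 12.9 ± 0.367 RPKM) and Trat1 (7.85 ± 0.996 and 8.21 ± 1.22 RPKM) did not pass. Ptcra, the pre-T α chain, had 0.0718 RPKM in floxed replicate 1 and 0 in the other 5 libraries. Of 16 tested genes of proximal receptor signalling, 1 rose and 0 fell in limma (3 higher and 3 lower at an unadjusted p under 0.05, voom 2 and 1). The one that rose was the kinase gene Fyn, from 141 ± 3.10 to 181 ± 4.38 RPKM (adjusted p = 0.0106). The kinase genes Lck (150 ± 3.10 and 161 ± 2.17 RPKM) and Zap70 (55.3 ± 2.94 and 51.2 ± 3.34 RPKM) did not pass. Of 14 tested T lineage factors, 0 passed in limma (1 higher and 2 lower unadjusted, voom 0 and 1), and Tcf7, which encodes TCF-1, was at 226 ± 7.24 and 240 ± 3.54 RPKM. Of 6 tested genes of V(D)J joining, 0 passed (0 and 2 unadjusted, voom 0 and 0), and Rag1, Rag2 and Dntt had no row among the genes given.

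Markers of T cells were read beside the segments, and their part in the segment values was not tested. Of 12 αβ T cell markers, 7 were tested and 0 passed in limma, with 0 higher and 1 lower at an unadjusted p under 0.05 and 0 and 1 in voom. The marker lower at that threshold was Cd8b1, the CD8 β chain, at 1.27 ± 0.220 and 0.265 ± 0.190 RPKM (limma adjusted p = 0.0976). Cd8b1 met the filter through the floxed libraries only, so it had to differ and its test supports nothing. The summed level of the list ranged from 45.9 to 49.3 RPKM across floxed libraries and from 42.4 to 49.7 RPKM across cKO libraries. Cd4, which other lymphocytes can also express, was at 27.7 ± 1.76 and 27.6 ± 2.5 RPKM and made up most of this sum. The T cell genes Cd5 (0.502 ± 0.284 and 0.194 ± 0.106 RPKM), Cd6 (0.488 ± 0.258 and 0.193 ± 0.0429 RPKM), Cd8a (0.337 ± 0.114 and 0.107 ± 0.0852 RPKM) and Themis (0.0807 ± 0.0536 and 0.0631 ± 0.0494 RPKM) stayed under 1 RPKM in every library. Other members of the list had higher means. Cd28 was at 9.04 ± 1.25 and 10.4 ± 0.440 RPKM and Icos at 3.65 ± 0.745 and 3.55 ± 0.412 RPKM. Ccr7 was at 1.62 ± 0.253 and 1.22 ± 0.156 RPKM and Ctla4 at 1.38 ± 0.117 and 1.25 ± 0.735 RPKM. Foxp3 was at 1.29 ± 0.373 and 1.51 ± 0.107 RPKM, and none of these tested members passed. Of 8 γδ T cell markers, Il17a and Scart2 had no row among the genes given, 2 were tested and 0 passed in limma (0 higher and 1 lower unadjusted, voom 0 and 0). Their sum ranged from 20.5 to 22.6 RPKM across floxed libraries and from 18.8 to 20.03 RPKM across cKO libraries, and Sox13, Blk and Il23r were under 1 RPKM. Maf (11.0 ± 1.48 and 9.13 ± 0.0951 RPKM) and Cd163l1 (8.71 ± 0.891 and 8.47 ± 0.300 RPKM) made up most of this sum. Maf was the marker lower unadjusted (limma adjusted p = 0.343). Of 5 NKT markers, 3 were tested and 0 passed (0 and 0 unadjusted, voom 0 and 0), at sums of 34.1 to 38.0 and 33.2 to 38.5 RPKM. Cd4 is in this list too and made up most of these sums, and its members Slamf1 and Cd5 stayed under 1 RPKM. Of 6 markers of ILC2 and ILC3, 2 were tested and 0 passed (1 and 0 unadjusted, voom 0 and 0). The 1 higher was Il22, at 0.531 ± 0.308 and 1.33 ± 0.335 RPKM. Il22 met the filter through the cKO libraries only, so it too had to differ and its test supports nothing. The NK and ILC1 genes were high in all libraries, at a sum of 1064 to 1082 RPKM over 10 genes in floxed and 920.5 to 943.5 RPKM in cKO libraries. Of these Ncr1 fell (372 ± 10.8 to 246 ± 12.5 RPKM) and Eomes rose (42.4 ± 2.44 to 65.8 ± 4.31 RPKM), and the other 8 did not pass. Over all 10 genes, with Ncr1 and Eomes counted, 1 lay higher and 5 lower unadjusted, and voom called 1 and 3.

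The immunoglobulin loci, the other loci that are assembled from segments, are set beside the receptor loci as a description without a test. V segments took 86.4 to 87.3% of the κ reads, 53.6 to 57.1% of the heavy chain reads and 42.4 to 45.02% of the λ reads of a library, beside 2.69 to 4.21% for the β, 7.66 to 13.8% for the γ (Tcrg rows included), 32.6 to 51.4% for the α and 63.5 to 67.7% for the δ locus. The δ share thus lay above those of the heavy chain and λ, and the α share overlapped that of λ. Summed reads were 1034 ± 65.6 RPM in floxed and 1047 ± 40.3 RPM in cKO libraries for κ and 600 ± 50.5 and 631 ± 36.8 RPM for the heavy chain, both above the β locus, and 195.5 ± 11.4 and 188 ± 14.5 RPM for λ, below it. Of 184 tested immunoglobulin segments, 0 passed in limma and 0 in voom. At an unadjusted p under 0.05, 11 lay higher and 6 lower, beside 5.55 and 8.6% of all tested genes. The median log2 difference of the immunoglobulin segments was 0.01, beside -0.27 for the receptor segments. The B cell genes Cd79a, Ms4a1, Pax5 and Ebf1 were under 1 RPKM in every library, and so were the plasma cell genes Jchain and Mzb1. Of the B cell markers, 4 were tested and 3 fell, namely Cd22, Cd74 and H2-Ab1, from 54.1 ± 3.93 to 32.0 ± 4.61 RPKM for Cd74 (0 higher and 4 lower unadjusted, voom 0 and 3). The other was Cd79b, a chain of the B cell receptor complex, at 1.54, 1.94 and 1.65 RPKM in floxed and 1.49, 0.596 and 0.507 RPKM in cKO libraries (limma adjusted p = 0.314). Of 5 plasma cell markers, 2 were tested and 0 passed (0 and 1 unadjusted, voom 0 and 1).

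**Figure D4:**
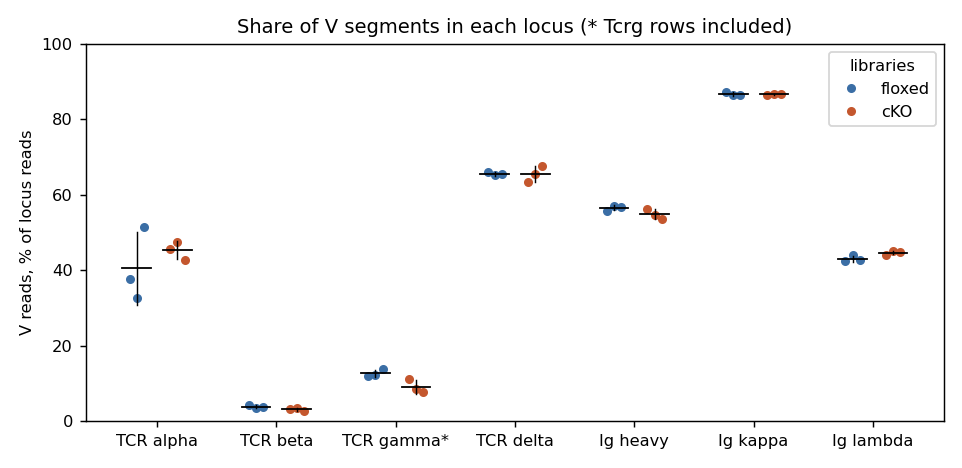
Share of V segment reads among all reads of each T cell receptor (TCR) and immunoglobulin (Ig) locus, in percent, 1 point per library, with the group mean as a bar and the SD as a line (n = 3 each). TCR β lies at 2.69 to 4.21% and Ig κ at 86.4 to 87.3%, and in TCR γ, with the Tcrg rows, the cKO points lie below the floxed points.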

How the data were processed

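The deposited table holds RPKM, made by the authors with STAR 2.5.3a, featureCounts, Subread 1.5.1 and edgeR 3.12.1 on mm10, per the submitters' processing notes; per the labels' protocols, 2 µg of total RNA entered a stranded mRNA kit. Tool roles, strand setting, multi-mapping reads and reads that touch several segments were not given in the sources used here. RPKM times length fell on whole reads for 100% of values within 0.001 reads, and 78.8% of values of 1 to 20 reads were even, so 2 reads can be 1 fragment. No row has 0 reads in all libraries.

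Limma 3.58.1 in R 4.3.3 was run on log2(RPKM + 1) with a mean-variance trend, no covariates, genes with at least 1 RPKM in 3 of 6 libraries, two-sided, passing at adjusted p under 0.05. Differences are cKO minus floxed. Levels are means ± SD over 3 libraries. Named were every C and D segment, the 4 most read V and J segments of each locus, passing segments, the 6 next by p, invariant receptor segments, and in each gene list up to 4 passing and 2 other members and all CD3 chains. The other β J segments, further list members and the overlapping genes were named after their values were seen. One B cell marker and the sum of that list are not reported here. Sums got no test. Alternatives were other pseudocounts, filters and scalings, limma voom, a replicate block and each library left out. Members and lists were chosen with earlier results of these data known. The scripts were tested on simulated data.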

Additional observations from a re-analysis of the deposited data

How the results depend on the processing

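The count of 2 segments higher in the cKO libraries became 1 at a pseudocount of 0.1 RPKM, with at least 10 reads in 3 libraries and with at least 1 RPKM in all 6 libraries. It became 0 with no filter on low values, with voom and with the replicate block, and 0 to 1 when 1 library was left out. The count of segments that fell was 0 in limma in every fit run. Over all genes, 83 rose and 85 fell. These counts were 226 and 307 with voom, 44 and 36 without the filter, 39 and 35 without the mean-variance trend, 37 and 23 with the replicate block, and 33 to 50 and 27 to 39 without 1 library. Deviations of same-numbered libraries correlated at -0.03, 0.01 and 0.04 over 12731 genes, and those of unlike-numbered libraries at -0.10 to 0.09. No pairing by replicate number was seen, but such correlations cannot exclude one. With the block, Trdv2-1 had an adjusted p of 0.0783 and Traj40 of 0.0896. The summed log2 ratio over all segments moved from -0.0410 to -0.0875 when the Tcrg rows, added after the data were seen, were included. Sums of the β and δ loci changed sign with trimmed-mean scaling (-0.02 to 0.02 and -0.03 to 0.01). The α locus had 1 segment with at least 10 reads in all 6 libraries and 3 with at least 5. The cause of these shifts was not tested. Of 169 segments, 34 had at least 10 reads in all libraries, and for the others depth limits what can be told apart.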
